A study of Mus musculus with 28 samples.

Results

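The question addressed here is whether the liver's response to a fat and cholesterol rich diet differed between mice with and without Myc in their endothelium. It was asked of 16 of the 28 whole-liver RNA-seq libraries of the series, the 16 from male mice. They form 4 groups of 4 animals, and every gene of the deposited count table was considered. Of its 32544 genes, 14078 had enough counts to be tested.

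All animals were C57BL/6 mice that the labels age at 13 weeks. Controls (CT) carried a floxed Myc gene, and in the endothelial c-Myc knockout (EC-Myc KO, here KO) a tamoxifen-inducible Cre recombinase deletes it from endothelial cells. The promoter that drives the Cre is not given in the sources used here. Both genotypes received tamoxifen at 5 weeks of age, so the controls share the injection and the floxed alleles. After another 2 weeks they were fed for 5 weeks, either on the low-fat control food (CTD) or on one rich in fat and cholesterol (HFC). Together these steps come to less than the labelled age, and the labels do not say where the rest falls. Animal numbers run from 298 to 320 on CTD and from 414 to 543 on HFC, so number range and diet cannot be told apart here. On HFC they run from 414 to 418 and from 539 to 543. The later range holds CT animal 543 and KO animals 539 and 540, so it is not shared evenly between the genotypes. The labels do not say what these ranges stand for. The labels give each library its own animal number but say nothing of litters or cages.

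An interaction is the difference between the diet effect in KO mice and the diet effect in CT mice, on the log2 scale. A positive value means that HFC raised a gene more, or lowered it less, in KO mice than in CT mice. The same number is also the KO minus CT difference on HFC less that on CTD, so both parts are given with it.

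Liver sinusoidal endothelial cells line the liver's blood channels and sit next to Kupffer cells, the resident macrophages, and stellate cells, which store vitamin A and can lay down collagen. Fat and cholesterol overload brings monocytes into the liver, where they become macrophages, and raises antigen presentation, chemokines and matrix genes. Myc is a transcription factor for growth, nucleotide and ribosome synthesis, and endothelial cells need it when they proliferate. In whole-liver RNA, fewer cells of a type and less RNA per cell cannot be told apart.

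Libraries held between 22154774 and 22652285 counts. Animals of one group differed far beyond counting error: over the 24 pairs within groups the chi-square per degree of freedom was at least 11.92, so no library was a copy of another. TMM factors, which adjust each total for RNA composition, lay between 0.862 and 0.999 in CTD livers and between 1.02 and 1.19 in HFC livers. Targeted gene Myc was not lower in the KO livers, where most RNA comes from hepatocytes. Myc stood at 6.42 CPM (counts scaled to the library's size) ± 1.32 (SD, n = 4) in CT and 11.2 ± 7.67 in KO on CTD, and at 8.38 ± 4.16 in CT and 11.4 ± 6.16 in KO on HFC, so whole-liver Myc gives no check of the deletion. Red cell genes summed to 301 to 704 CPM over the 16 livers. Pancreas genes summed to 2.64 to 9.60 CPM, with Cpa1, Ctrb1, Pnlip, Prss2 and Try4 at 0. Fat tissue genes summed to 176 to 1579 CPM with Lep at 0, and were higher on CTD (615 to 1579) than on HFC (176 to 633) without a gap between genotypes. Fabp4, Pparg and Lipe of this list held 79 to 202, 87 to 370 and 286 to 555 counts per library. Most of the sum therefore came from its other members.

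Short stretches of promoter are shown for 5 genes, 3 from the 10 genes with the smallest p for a positive interaction and 2 from MHC class II, the list with the highest median. Each runs 250 bases before to 50 bases after the start of transcription in RefSeq (GRCm38.p6), 5′ to 3′ along the gene. In Clec1b, Treml4 and Lcp2, the first 3, capitals mark GAGGAA on either strand (TTCCTC when it lies on the other), the core read by the myeloid factor PU.1. In H2-Aa and H2-Eb1, chains of MHC class II, capitals mark CTGATTGG on either strand, the Y box that NF-Y binds. The stretches lie at chr6:129397047-129397346 (plus strand, Clec1b), chr17:48264045-48264344 (plus, Treml4), chr11:34046678-34046977 (plus, Lcp2), chr17:34287774-34288073 (minus, H2-Aa) and chr17:34305617-34305916 (plus, H2-Eb1).
Clec1b: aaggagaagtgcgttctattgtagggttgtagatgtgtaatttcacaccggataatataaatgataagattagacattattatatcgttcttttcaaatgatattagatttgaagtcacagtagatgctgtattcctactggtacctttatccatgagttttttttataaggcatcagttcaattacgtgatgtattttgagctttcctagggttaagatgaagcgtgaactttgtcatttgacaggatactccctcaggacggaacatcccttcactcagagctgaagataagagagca
Treml4: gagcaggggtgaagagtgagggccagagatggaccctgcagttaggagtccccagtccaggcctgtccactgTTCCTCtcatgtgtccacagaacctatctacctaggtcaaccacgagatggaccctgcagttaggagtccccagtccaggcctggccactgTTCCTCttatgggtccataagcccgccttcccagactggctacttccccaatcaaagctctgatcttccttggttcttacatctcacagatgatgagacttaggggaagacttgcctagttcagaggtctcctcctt
Lcp2: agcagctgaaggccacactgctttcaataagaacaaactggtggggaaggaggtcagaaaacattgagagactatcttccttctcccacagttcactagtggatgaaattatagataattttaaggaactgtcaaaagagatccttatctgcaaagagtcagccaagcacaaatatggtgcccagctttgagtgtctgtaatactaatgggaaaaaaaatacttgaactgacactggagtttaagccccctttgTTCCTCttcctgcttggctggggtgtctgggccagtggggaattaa
H2-Aa: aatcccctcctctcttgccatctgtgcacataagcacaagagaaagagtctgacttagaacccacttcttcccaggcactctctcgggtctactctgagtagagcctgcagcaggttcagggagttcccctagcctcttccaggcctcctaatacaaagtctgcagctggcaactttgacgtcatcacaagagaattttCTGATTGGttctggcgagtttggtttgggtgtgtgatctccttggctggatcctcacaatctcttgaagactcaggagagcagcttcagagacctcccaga
H2-Eb1: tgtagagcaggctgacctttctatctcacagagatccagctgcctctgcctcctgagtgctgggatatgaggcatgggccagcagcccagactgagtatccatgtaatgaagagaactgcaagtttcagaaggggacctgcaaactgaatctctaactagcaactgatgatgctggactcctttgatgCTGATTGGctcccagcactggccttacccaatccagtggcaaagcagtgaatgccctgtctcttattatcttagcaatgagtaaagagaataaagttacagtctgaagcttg
The 6-base motif is short, and 28.3% of the 32851 RefSeq promoters of this length hold it. It was found in 4 of the 9 promoters listed for those 10 genes, in 10 of the 17 listed for the 24 macrophage genes and in 6 of the 11 listed for the 12 Kupffer cell genes. The Y box is held by 4.1% of all promoters and was found in 3 of the 7 listed for the 10 MHC class II genes (H2-Aa, H2-Eb1 and H2-Oa). These matches describe letters in a window and are not evidence of binding, and Clec1b holds no GAGGAA in its window.

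No gene passed the test of the interaction. With edgeR's quasi-likelihood test, 0 of 14078 genes (0%) had an adjusted p under 0.05, and the smallest adjusted p was 0.415. At an unadjusted p under 0.05 there were 852 genes (6.05%), 575 positive (4.08%) and 277 negative (1.97%). Limma called 0 genes, and DESeq2 called 5 (0.0355%): Clec1b, Kcna2, Treml4, Gm10359 and Gm12671. The median standard error (SE) of an interaction was 0.185 and the distance from the estimate to either end of its 95% interval was 0.391, against 0.277 for a diet effect in CT mice. A typical gene therefore had to differ by well over 0.39 on the log2 scale to stand out among 14078 tests.

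Gene by gene, the positive side was made of crossings. Among the 575 genes with a positive interaction at unadjusted p under 0.05, KO was below CT on CTD in 570 and above CT on HFC in 562, and both held in 557. Their median interaction was 0.71, made of a median KO minus CT difference of -0.39 on CTD and 0.28 on HFC, and the CTD part was the larger in 368. The 277 negative genes had a median of -0.37, with medians of 0.21 on CTD and -0.16 on HFC, and 259 of them crossed. The choice of genes by their interaction favours such crossings, so these counts are descriptions. Over all 14078 genes the median interaction was 0.01, and 7020 crossed in one direction or the other.

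Neither part passed on its own. For KO against CT on CTD, edgeR called 0 genes (0%), with 949 at unadjusted p under 0.05 (6.74%) and a smallest adjusted p of 0.193. For KO against CT on HFC it also called 0 (0%), with 653 at unadjusted p under 0.05 (4.64%) and a smallest adjusted p of 0.958. DESeq2 called 11 genes on CTD (0.0781%) and 3 on HFC (0.0213%). The 11 included Clec1b (-0.67, DESeq2 adjusted p = 0.00845), Kcna2 (-0.78, 8.72e-04), Dock10 (-0.67, 0.02), Mrc1 (-0.62, 0.0148) and Ptprc (-0.72, 0.0418), all lower in KO, and Setd4 (0.92, 0.0102) and Csad (0.99, 0.02), both higher. Mrc1 encodes a mannose receptor. By contrast, the diet itself raised 1497 genes in CT mice (10.6%) and lowered 1323 (9.4%), and in KO mice raised 2184 (15.5%) and lowered 1918 (13.6%). A larger count in one genotype is not a test of the difference, which is the interaction.

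The C-type lectin gene Clec1b (chr6:129397297-129409335) had the smallest p of the interaction. CLEC-2, its product, is a receptor for podoplanin, found on platelets and on Kupffer cells. Its level was 12.9, 11.4, 17.4 and 14.1 CPM in the 4 CT livers on CTD and 8.77, 8.97, 7.80 and 9.62 CPM in the 4 KO livers. On HFC it was 19.3, 14.9, 14.5 and 18.6 CPM in CT and 20.6, 18.3, 20.01 and 22.1 CPM in KO. On CTD every KO liver was below every CT liver, and on HFC the genotypes overlapped. HFC raised Clec1b in KO mice by 1.21 (edgeR adjusted p = 3.54e-06), while in CT mice the difference was 0.27 (adjusted p = 0.136). The interaction was 0.94 with an SE of 0.18 and a 95% interval of 0.56 to 1.31 (edgeR adjusted p = 0.415, DESeq2 0.00511, limma 0.848).

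Treml4 (chr17:48264295-48275360), a receptor of macrophages and dendritic cells that binds dying cells, showed the same pattern. It stood at 5.30, 4.63, 5.1996 and 5.61 CPM in CT and 3.94, 3.49, 2.88 and 3.19 CPM in KO on CTD. In the HFC livers it was 8.30, 7.55, 10.6 and 12.2 CPM in CT and 15.999, 11.5, 12.9 and 14.7 CPM in KO. The KO livers were all lowest on CTD and 3 of 4 were above every CT liver on HFC. The diet raised it in CT by 0.90 (edgeR adjusted p = 7.23e-04) and in KO by 2.03 (3.37e-07), an interaction of 1.13 with an SE of 0.22 (edgeR adjusted p = 0.415, DESeq2 0.00795).

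Kcna2 (chr3:107101146-107115005) encodes a voltage-gated potassium channel. On CTD it measured 7.82, 9.11, 11.7 and 10.7 CPM in CT and 5.67, 5.78, 4.39 and 7.12 CPM in KO. On HFC it measured 16.01, 14.5, 13.2 and 15.6 CPM in CT and 17.3, 16.8, 17.3 and 15.4 CPM in KO. Again the genotypes separated on CTD and overlapped on HFC. Its interaction was 0.94 with an SE of 0.19 (edgeR adjusted p = 0.415, DESeq2 0.00511), and the diet raised it in both genotypes, by 0.60 in CT (edgeR adjusted p = 0.00402) and by 1.54 in KO (6.91e-07).

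**Figure D1:**
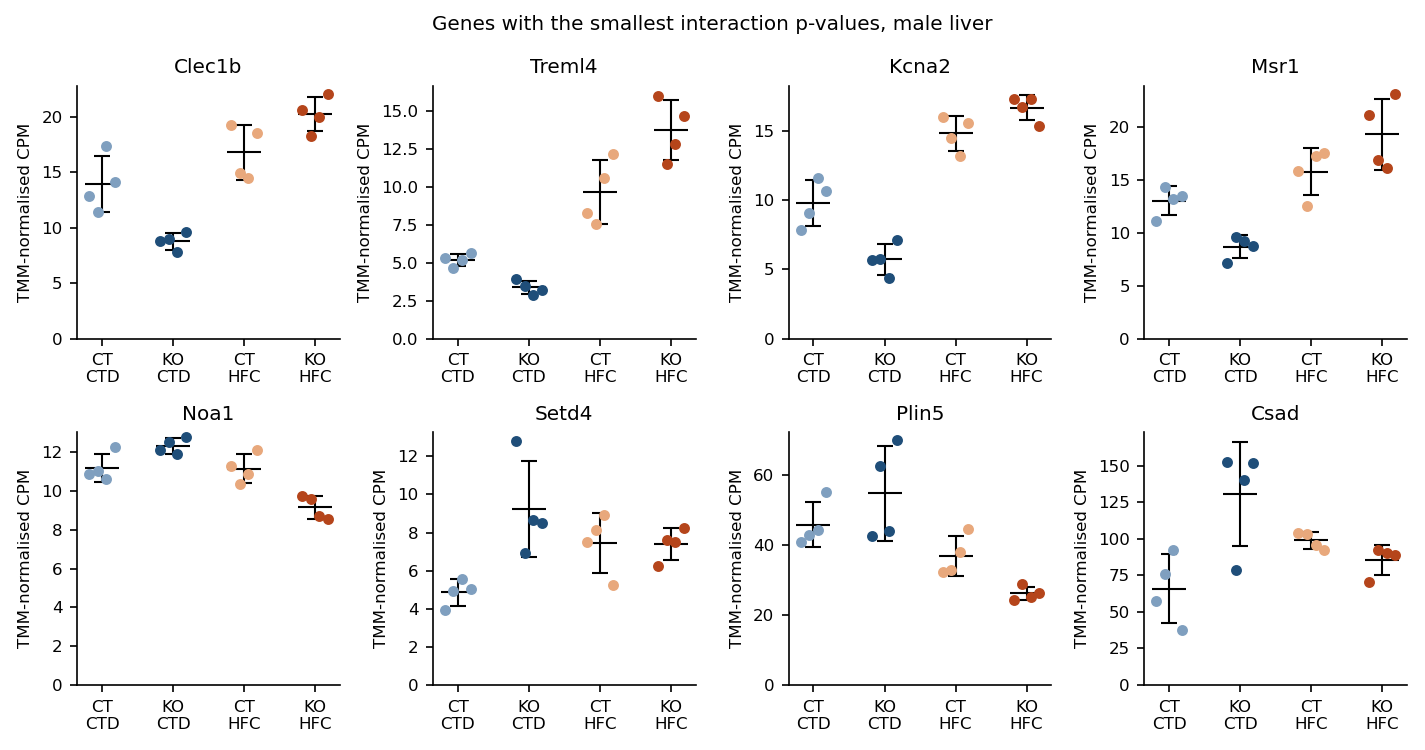
TMM-normalised CPM in each of the 16 male livers for 4 genes with a positive interaction (top) and 4 with a negative one (bottom). Points are animals, bars the mean ± SD (n = 4), all axes start at 0, and in the top row the KO livers on CTD lie below all CT livers on CTD.

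The other 7 of the 10 positive genes with the smallest p were the inhibitory myeloid lectin Clec12a (0.92), the scavenger receptor Msr1 (0.87), the haematopoietic GTPase regulator Arhgap30 (0.90), the signalling adaptor Lcp2 (SLP-76, 0.91), the pan-leukocyte phosphatase Ptprc (CD45, 0.94), the NAD glycohydrolase Cd38 (0.64) and the Rac and Cdc42 activator Dock10 (0.79). Ptprc, the defining marker of blood-derived cells, was 11.04, 12.6, 11.9 and 17.7 CPM in CT and 8.67, 7.92, 8.34 and 7.66 CPM in KO on CTD, and 26.7, 21.0, 26.8 and 33.4 CPM in CT and 36.7, 26.2, 29.2 and 34.8 CPM in KO on HFC. In all 10 genes the KO and CT livers did not overlap on CTD, with KO below, and in 0 of 10 did they separate on HFC. Over all genes, 2.05% had KO below CT without overlap on CTD and 1.09% had KO above CT without overlap on HFC. The 10 were chosen on a contrast that holds these values, so nothing is read from that count. The diet raised all 10 in KO and 7 of 10 in CT (edgeR), the exceptions in CT being Clec1b, Msr1 and Cd38. Over all genes it raised 15.5% in KO and 10.6% in CT. The choice of the 10 favours a larger diet effect in KO, so nothing is read from these counts either. Apart from Clec1b, Treml4 and Kcna2, the edgeR adjusted p-values for the interaction of the other 7 were between 0.574 and 0.653.

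The negative genes with the smallest p, of which 9 are reported, had interactions of -0.26 to -1.20. Plin5, which coats lipid droplets in cells that burn fat, was 41.0, 43.0, 44.5 and 55.4 CPM in CT and 42.6, 62.8, 44.1 and 70.02 CPM in KO on CTD. With HFC it was 32.3, 33.0, 38.0 and 44.7 CPM in CT and 24.3, 28.9, 25.3 and 26.4 CPM in KO, every KO liver below every CT liver. HFC lowered Plin5 in KO by 1.07 (log2 change -1.07, edgeR adjusted p = 1.00e-04), and the value in CT was -0.31 (adjusted p = 0.161). Its interaction was -0.75 with an SE of 0.22 (edgeR adjusted p = 0.727).

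Csad and Setd4 had the largest negative values of the 9. Csad makes hypotaurine, the precursor of taurine. It was 57.3, 76.0, 92.5 and 37.5 CPM in CT and 153, 78.4, 140.1 and 152 CPM in KO on CTD, and 104, 104, 95.6 and 92.3 CPM in CT and 70.2, 92.2, 90.5 and 88.7 CPM in KO on HFC. The spread on CTD was wide in both genotypes and 1 KO liver lay inside the CT range, while the HFC livers were close together. On HFC every KO liver was below every CT liver, narrowly, with 92.2 CPM the highest in KO and 92.3 CPM the lowest in CT. The interaction was -1.20 with an SE of 0.34 (edgeR adjusted p = 0.727). Setd4, a lysine methyltransferase, was 3.91, 4.93, 5.56 and 5.03 CPM in CT and 12.8, 6.92, 8.68 and 8.49 CPM in KO on CTD, where the genotypes did not overlap. On HFC it was 7.50, 8.12, 8.90 and 5.23 CPM in CT and 6.25, 7.58, 7.48 and 8.23 CPM in KO, which overlapped. The interaction was -0.94 with an SE of 0.26.

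The remaining negative genes were Noa1 (-0.42), a GTPase of mitochondrial ribosome assembly, L3mbtl2 (-0.40), a Polycomb-related repressor, Wdr90 (-0.71), a centriole protein, Ppp1r3e (-0.48), a glycogen-targeting subunit of protein phosphatase, Ap3d1 (-0.26), a subunit of the AP-3 sorting complex, and the predicted gene Gm20594 (-0.56). Noa1 separated on HFC, at 11.3, 10.4, 10.9 and 12.1 CPM in CT against 9.75, 9.59, 8.72 and 8.56 CPM in KO. Of these 9 negative genes, 5 had KO below CT without overlap on HFC (1.07% of all genes did) and 2 had KO above CT without overlap on CTD (1.94% of all genes). As with the positive genes, the contrast that chose them holds these values.

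**Figure D2:**
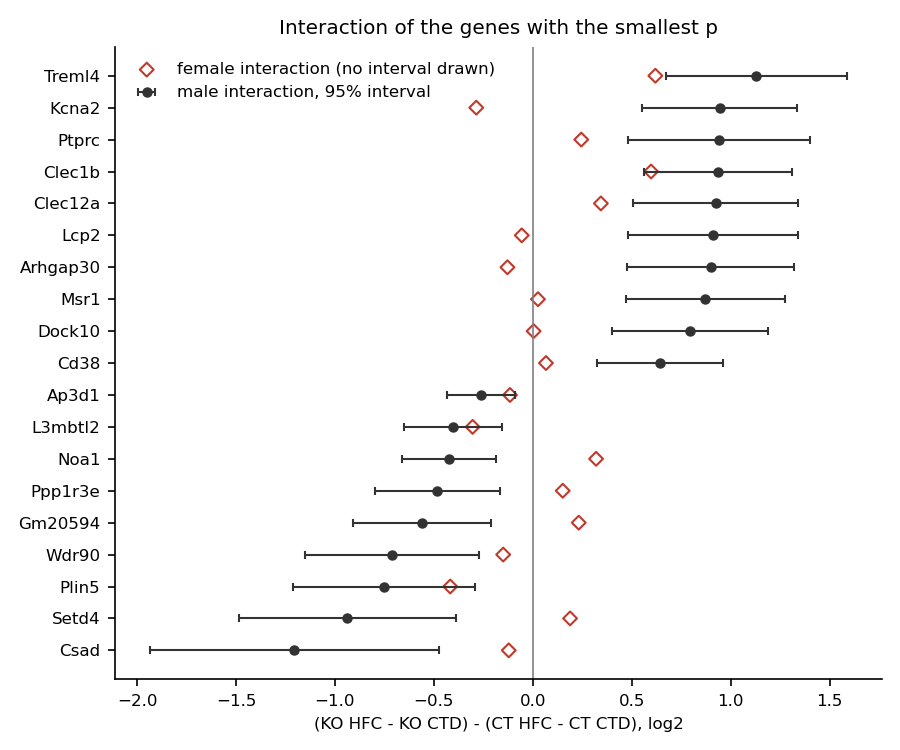
Interaction on the log2 scale for the 10 positive and the 9 reported negative genes with the smallest p, with 95% intervals in males (filled circles) and the estimate in females (open diamonds). Male intervals exclude 0 because the genes were chosen by p, and 7 of the positive and 5 of the negative genes have the same sign in females.

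The predicted genes Gm10359 and Gm12671, on chromosomes 5 and 4, were called by DESeq2 with an interaction of -25.07 (adjusted p = 4.52e-04). Their counts are equal in 16 of 16 libraries, so reads cannot be assigned to one or the other. Those counts were 14, 1221, 135 and 2607 in CT on CTD, 0, 1609, 490 and 3 in CT on HFC, 1587, 0, 0 and 0 in KO on CTD, and 0 in all 4 KO livers on HFC. Within 3 of the 4 groups, animals ranged from 14 counts or fewer to 1587 or more. With a group at 0 neither tool's fitted value is a bound. The edgeR value, which depends on its prior count, was -10.7 with an adjusted p of 0.927.

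Genes were then read in 29 lists of liver cell types and pathways. The median interaction was above 0 in 19 lists and above 0.25 in 12, against 0.01 over all genes. In 10 of those 12 the list median of KO minus CT was below 0 on CTD and above 0 on HFC. These were the lists of macrophages, Kupffer cells, lipid-associated macrophages, MHC class II, dendritic cells, T and NK cells, B and plasma cells, chemokines, stellate cells and matrix. Taking lists by their median interaction favours such crossings, so the count of 10 is a description. Signs of the matrix and lipid-associated macrophage medians turned on leaving out 1 animal. The matrix median on CTD was -0.17, and 0.135 without CT animal 320. Without KO animal 414 the HFC medians were -0.024 for matrix (0.30 with it) and -0.020 for lipid-associated macrophages (0.39 with it). The stellate cell median on CTD was only -0.004 and turned sign in 4 of the alternatives. The other lists of the 12, interferon and cell cycle, had CTD medians of 0.00 and 0.07, and these turned sign in 5 and 2 of the alternatives. No gene of any list passed the adjusted test, so the counts below are of genes at unadjusted p under 0.05, to be set beside 4.08% positive and 1.97% negative over all genes. At any p, 7227 of all 14078 genes had a positive interaction and 6851 a negative one.

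**Figure D3:**
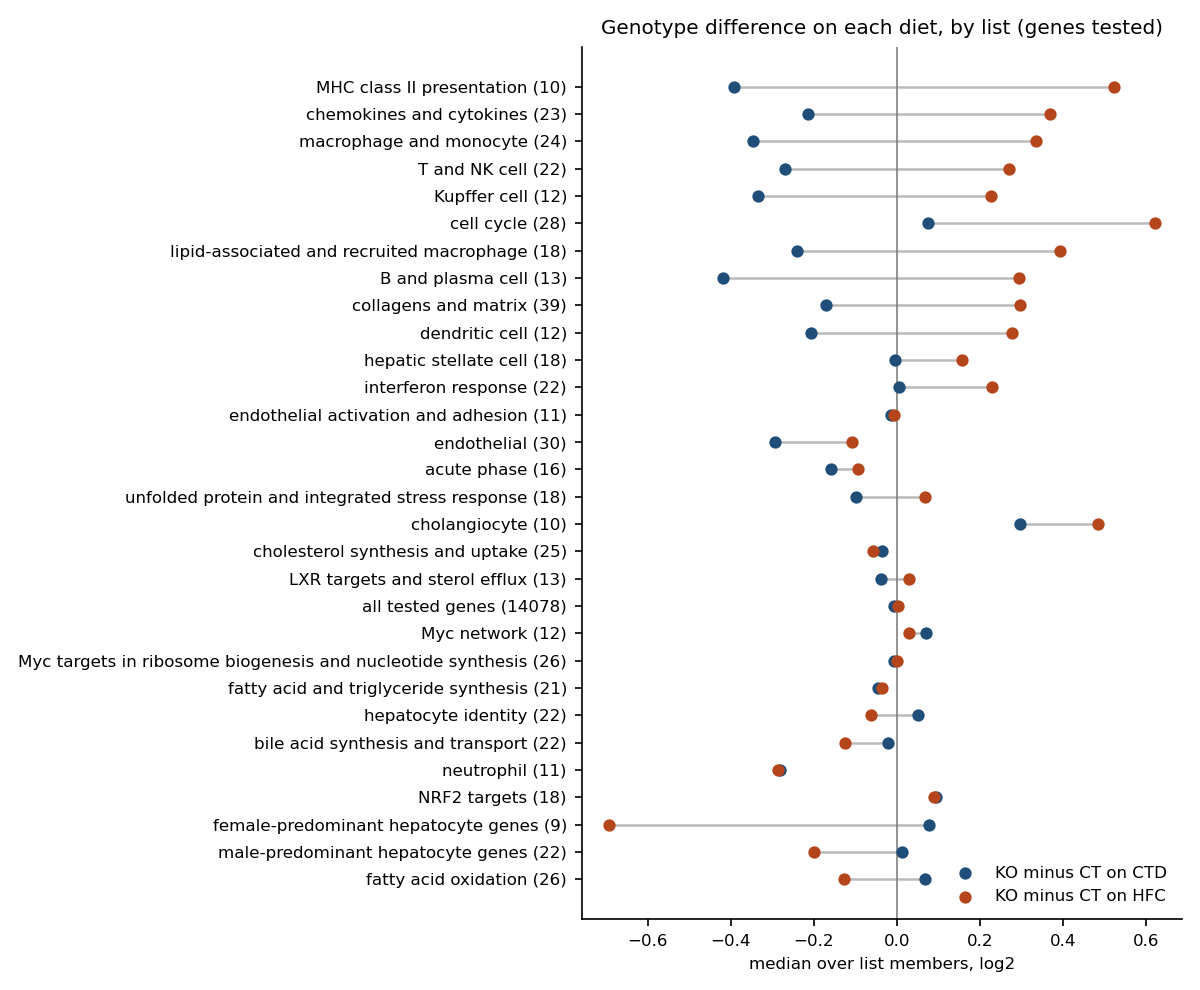
Median over each list's tested genes of the KO minus CT difference on CTD (blue) and on HFC (orange), log2, with lists ordered by median interaction. The first 5 lists run from below 0 on CTD to above 0 on HFC, the sixth, cell cycle, runs from 0.07 to 0.62, and the median of all tested genes is within 0.01 of 0 on both.

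All 24 macrophage and monocyte genes had a positive interaction, 19 at unadjusted p under 0.05, with a median of 0.72 and a range of 0.42 to 1.12. All 24 were lower in KO on CTD (median -0.35) and higher in KO on HFC (median 0.34), although 2 separated without overlap on CTD and 0 on HFC. Over all 14078 genes, 7327 were lower in KO on CTD and 7191 higher in KO on HFC. Without overlap these shares were 2.05% on CTD and 1.09% on HFC. HFC raised 21 of 24 in CT mice and 24 of 24 in KO mice (edgeR adjusted p under 0.05), where it raised 10.6% and 15.5% of all genes. Their median diet effect was 1.04 in CT and 1.74 in KO. These genes follow the same cells and are not independent of each other.

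Mpeg1, a pore-forming protein of macrophage lysosomes, was 79.9, 86.1, 116 and 90.4 CPM in CT and 51.5, 84.0, 53.1 and 69.8 CPM in KO on CTD, and 129, 156, 153 and 222 CPM in CT and 234, 165, 231 and 230.4 CPM in KO on HFC. The groups overlapped on both diets by 1 or more animals. The interaction of Mpeg1 was 0.91 with an SE of 0.27 (edgeR adjusted p = 0.727). Ctss, the cathepsin that trims the invariant chain, had 0.88 (SE 0.26), and Ly86, a partner of the RP105 receptor, 0.74 (SE 0.23). Textbook markers were close to them, with 0.69 for Csf1r, the CSF-1 receptor, 0.65 for Adgre1 (F4/80) and 0.81 for Cd68. Adgre1 averaged 20.5 CPM ± 3.92 in CT and 14.4 ± 1.83 in KO on CTD, and 41.5 ± 9.63 in CT and 45.5 ± 4.35 in KO on HFC (SD, n = 4).

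The list score, the mean of log2(CPM + 1) over the 24 genes, shows how the animals lie. On CTD it was 3.36, 3.53, 3.70 and 3.999 in CT and 3.31, 3.43, 3.26 and 3.38 in KO. On HFC the score was 4.34, 4.38, 4.65 and 4.99 in CT and 5.16, 4.65, 4.94 and 4.89 in KO. On CTD the KO livers sat tightly at the low end of the CT range (SD 0.07 against 0.27), and on HFC 2 CT livers, animals 418 and 543, were inside the KO range. The highest CT liver on CTD, animal 320, was also highest in the matrix score. Without it the macrophage median interaction was 0.57 and 12 of 24 genes were at unadjusted p under 0.05. When one spread was estimated over all 28 libraries, 0 of 24 were at unadjusted p under 0.05, although all 24 stayed positive.

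Kupffer cell genes divided. Of 12, 6 had a positive interaction at unadjusted p under 0.05 and the median was 0.58, made of -0.34 on CTD and 0.23 on HFC. These 6 were Clec1b, Timd4 (0.78), the phosphatidylserine receptor of long-lived resident macrophages, the complement receptor Vsig4 (0.65), the secreted Cd5l (0.79), the folate receptor Folr2 (0.72) and Clec4f (0.51), the mouse Kupffer cell lectin. Timd4 was 6.54, 6.77, 10.3 and 9.02 CPM in CT and 5.77, 5.98, 6.09 and 6.77 CPM in KO on CTD, and 14.9, 14.6, 15.3 and 20.5 CPM in CT and 17.3, 19.7, 22.2 and 25.02 CPM in KO on HFC. Its ranges overlapped on both diets. Closer to 0 were the iron exporter Slc40a1 (0.11) and Nr1h3 (-0.04), which encodes LXR alpha and is also expressed in hepatocytes. Cd207 went the other way, with the lowest value of the list (-0.21).

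Lipid-associated and recruited macrophage genes had a median of 0.48 over 18, with 2 at unadjusted p under 0.05, Cd44 (0.59, SE 0.23), a hyaluronan receptor, and Ccr2 (0.77, SE 0.35), the receptor that draws monocytes out of the blood. Trem2, the lipid-sensing receptor that names these cells, had 0.13, and Gpnmb had 1.97 with an unadjusted p of 0.39. The list median was 0.11 without CT animal 320 on CTD.

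**Figure D4:**
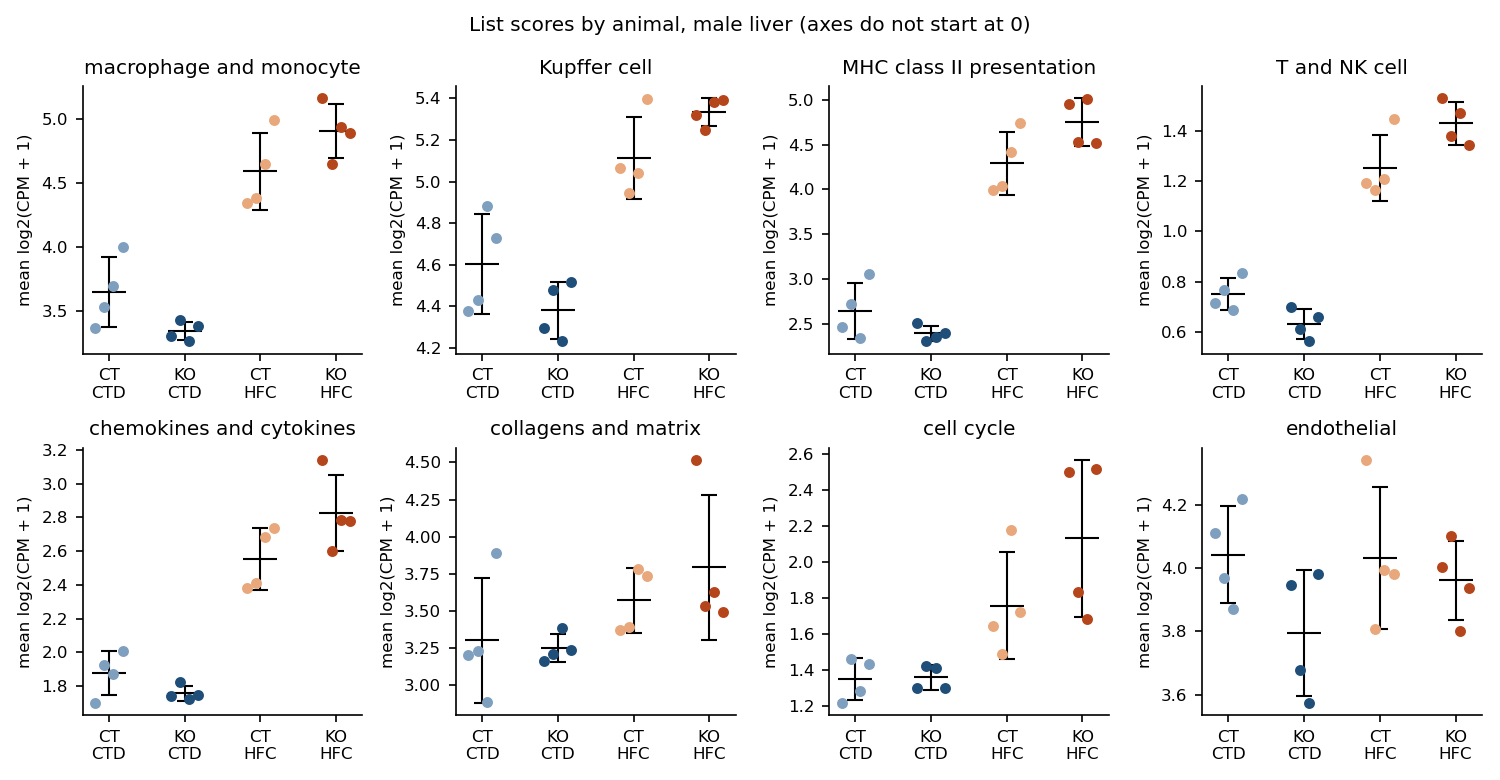
List scores, the mean of log2(CPM + 1) over a list's genes, in each of the 16 male livers, with mean ± SD (n = 4), axes not starting at 0. In the macrophage, Kupffer cell, MHC class II and chemokine panels KO is at the low end on CTD and the high end on HFC, with overlap on both diets, and in the matrix panel 1 KO liver on HFC lies far above the rest.

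MHC class II genes had the highest median of the 29 lists, 0.88 over 10 genes, all positive and 7 at unadjusted p under 0.05. The list median was -0.39 on CTD and 0.52 on HFC. H2-DMb1, a chain of the peptide exchange factor, was 3.22, 4.03, 3.33 and 4.80 CPM in CT and 2.58, 2.54, 2.54 and 2.90 CPM in KO on CTD, where the genotypes did not overlap. On HFC the gene was at 10.6, 11.6, 15.1 and 21.2 CPM in CT and 26.2, 15.0, 25.5 and 19.4 CPM in KO, which overlapped, and the interaction was 1.11 with an SE of 0.32 (edgeR adjusted p = 0.727). Cd74, the invariant chain that guides class II molecules, had 1.01 (SE 0.37). H2-Aa and H2-Eb1, whose promoters are shown above, had 0.85 (SE 0.35) and 0.84 (SE 0.38). H2-Aa averaged 22.5 CPM ± 6.58 in CT and 17.4 ± 0.578 in KO on CTD, and 140.1 ± 52.3 in CT and 194 ± 41.5 in KO on HFC. HFC raised 9 of the 10 genes in CT mice and 10 of 10 in KO mice (edgeR), beside 10.6% and 15.5% of all genes. Ciita, the master regulator of the family, had 0.92 with an unadjusted p of 0.069, and H2-Oa, which dampens peptide exchange, 0.12.

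Lymphocyte genes pointed the same way at low counts. All 22 T and NK cell genes were positive with a median of 0.62, and 6 were at unadjusted p under 0.05, among them Cd3e (1.94, SE 0.55), a chain of the T cell receptor complex, Prf1 (1.81, SE 0.58), perforin, and Cd28 (1.53, SE 0.54), the co-stimulatory receptor. Cd3e was 0.347, 0.747, 0.208 and 0.628 CPM in CT and 0.141, 0.0996, 0.146 and 0.196 CPM in KO on CTD, and 0.587, 0.795, 0.957 and 0.954 CPM in CT and 1.30, 0.902, 1.03 and 0.652 CPM in KO on HFC. The KO livers were below all CT livers on CTD and mixed with them on HFC. Other subunits of the same complex did not follow it, with Cd3g at 0.43 and Cd3d at 0.04. Among 13 B and plasma cell genes the median was 0.47 and 3 were at unadjusted p under 0.05, Pax5 (1.52, SE 0.44), the B cell identity factor, Cd22 (0.92, SE 0.32) and Cd79b (1.54, SE 0.58), of the B cell receptor. Of 12 dendritic cell genes 2 were, Treml4 and Irf8 (0.64, SE 0.19), with a median of 0.30. Of 11 neutrophil genes 5 were positive and 6 negative, with a median of -0.11 (0.41 without KO animal 303 on CTD).

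Chemokine and cytokine genes had a median of 0.76 over 23, with 22 positive and 4 at unadjusted p under 0.05. These were the T cell attractant Cxcl9 (0.94, SE 0.36), Ccl6 (1.04, SE 0.45), the eosinophil attractant Ccl24 (0.78, SE 0.36) and Ccl8 (2.91). Cxcl9 was 12.8, 23.0, 8.22 and 12.1 CPM in CT and 9.14, 9.96, 6.73 and 7.80 CPM in KO on CTD, and 33.4, 39.0, 59.2 and 54.2 CPM in CT and 52.5, 47.4, 55.3 and 57.9 CPM in KO on HFC. The genotypes overlapped on both diets. The list median was 0.36 without KO animal 414 on HFC. Interferon response genes had a median of 0.26 over 22, with Gbp4 (0.65, SE 0.21), a guanylate-binding protein of cell defence, Ifit2 (0.71, SE 0.25) and Gbp3 (0.52, SE 0.22) at unadjusted p under 0.05. None of 16 acute phase genes reached it, and their median was 0.17 (-0.191 without CT animal 313 on CTD, and 0.399 as a difference of mean scores).

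Endothelial genes, the compartment that the deletion targets, had a median interaction of 0.17 over 30. Only VE-cadherin, Cdh5, was at unadjusted p under 0.05 (0.43, SE 0.20, unadjusted p = 0.0449). Cdh5 was 24.4, 22.002, 24.96 and 29.2 CPM in CT and 21.6, 17.7, 17.0 and 22.4 CPM in KO on CTD, and 41.1, 24.99, 33.0 and 34.6 CPM in CT and 36.3, 35.7, 29.1 and 39.9 CPM in KO on HFC. Pecam1 had 0.33 (SE 0.18), and the sinusoidal scavenger receptors Stab2 and Stab1 0.30 and -0.02. On CTD, 29 of 30 endothelial genes were lower in KO (median -0.29), 4 of them without overlap, and 0 passed the adjusted test. Over all 14078 genes, 7327 were lower in KO on CTD, and 2.05% were lower without overlap. On HFC the median was -0.11. The part of this lower endothelial level on CTD in the lower macrophage and lymphocyte levels there was not tested. In the female livers, treated below, the endothelial median of KO minus CT on CTD was -0.01. Endothelial activation and adhesion genes had a median of 0.19 over 11, with 0 at unadjusted p under 0.05.

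The stellate cell and matrix values depended on 1 liver. The matrix list had a median of 0.46 over 39 genes, and Postn (0.60, SE 0.27), a matrix protein of scars, and fibrillin-1, Fbn1 (0.91, SE 0.41), were at unadjusted p under 0.05. On HFC the matrix score was 3.49 to 4.52 in KO, where animal 414 alone was above 3.63, and 3.37 to 3.78 in CT. Fbn1 was 10.9 CPM in that animal and 5.09 to 5.58 CPM in the other KO livers on HFC. Without animal 414 the median interaction of the matrix list was 0.09 and that of the stellate list 0.11, from 0.29. The same animal had the highest scores of the lipid-associated macrophage and cholangiocyte lists. It was also highest in the macrophage, dendritic cell, T and NK cell, B and plasma cell, chemokine and interferon scores. In the Kupffer cell, MHC class II, neutrophil and cell cycle scores another liver was highest. Without animal 414, 13 of 24 macrophage genes were at unadjusted p under 0.05, and all 24 stayed positive. In the stellate list, Acta2 (1.14, SE 0.43), smooth muscle actin, and Rgs5 (0.48, SE 0.20), a pericyte gene, were at unadjusted p under 0.05, and 10 cholangiocyte genes had a median of 0.10 with 0.

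Cell cycle genes had a median interaction of 0.55 over 28 genes, 5 at unadjusted p under 0.05. Their KO minus CT median was 0.07 on CTD and 0.62 on HFC, where 28 of 28 were higher in KO. Over all 14078 genes, 7191 were higher in KO on HFC. Top2a, the topoisomerase of dividing cells, was 2.82, 3.04, 2.39 and 3.19 CPM in CT and 2.06, 2.64, 2.34 and 1.86 CPM in KO on CTD, and 3.81, 4.50, 5.90 and 5.19 CPM in CT and 9.08, 5.49, 4.13 and 12.3 CPM in KO on HFC. Of the KO livers on HFC, 2 were far above all others and 2 lay among the CT livers. The interaction of Top2a was 1.04 with an SE of 0.38 (edgeR adjusted p = 0.754), and that of the spindle checkpoint kinase Bub1b 1.16 with an SE of 0.39. The list median was 0.26 without KO animal 414 and 0.93 without CT animal 418, both on HFC.

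For Myc itself the interaction was -0.36 with a 95% interval of -2.03 to 1.30 (edgeR adjusted p = 0.989). On the scale of log2(CPM + 1) the difference was -0.07, with a two-sided exact permutation p of 0.924 over 4900 relabellings within diets, which could go as low as 4.08e-04. Myc targets of ribosome and nucleotide synthesis had a median of -0.06 over 26 genes with 0 at unadjusted p under 0.05, and 12 genes of the Myc network a median of -0.03 with 0. In whole liver, most of this RNA comes from hepatocytes.

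Hepatocyte programmes had small median interactions. Medians were -0.06 for 22 hepatocyte identity genes, -0.09 for 22 bile acid genes, 0.05 for 25 cholesterol synthesis genes, -0.06 for 21 genes of fatty acid and triglyceride synthesis and 0.03 for 13 LXR targets. At unadjusted p under 0.05 there were 0 genes in these lists except the cholesterol exporter Abcg1 (0.63, SE 0.22), which macrophages also express. Fatty acid oxidation stood lowest, with 24 of 26 genes negative, a median of -0.20 and 4 at unadjusted p under 0.05. Eci2, an isomerase of unsaturated fatty acid breakdown, was 261, 257, 259 and 268 CPM in CT and 268, 274, 275 and 256 CPM in KO on CTD, and 221, 210, 208 and 221 CPM in CT and 150, 206, 184 and 181 CPM in KO on HFC. The genotypes overlapped on CTD and separated on HFC, and the interaction was -0.29 with an SE of 0.11 (edgeR adjusted p = 0.765). The other 3 were Acaa1b (-0.56, SE 0.23), the peroxisomal thiolase, Slc25a20 (-0.26, SE 0.11), the carnitine carrier, and the short-chain dehydrogenase Acads (-0.23). Stress genes of the unfolded protein response had 2 positive, the endoplasmic reticulum proteins Sdf2l1 (0.75) and Hsp90b1 (0.51), and 1 negative, Herpud1 (-0.62). NRF2 targets had a median of -0.15 and male-predominant and female-predominant hepatocyte genes -0.19 and -0.18, with 1 gene at unadjusted p under 0.05 among them, Cux2 (-1.48, SE 0.66). The interaction of Cux2 was -0.75 without CT animal 418 on HFC. The median of NRF2 targets was 0.161 without the same animal, and that of male-predominant genes 0.0895 without CT animal 417 on HFC.

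The same contrast in the 12 female livers, 3 per group, gave a separate set of animals in which to look for the pattern. Of 13999 genes tested, edgeR called 0 (0%) and DESeq2 0, with 323 positive (2.31%) and 223 negative (1.59%) at unadjusted p under 0.05. Of the 24 macrophage genes, 0 were at unadjusted p under 0.05 in females, the median interaction was 0.14, and the KO minus CT medians were 0.22 on CTD and 0.40 on HFC. In females the macrophage level on CTD was thus higher in KO by its median, where in males it was lower. MHC class II genes had a female median of -0.05, T and NK cell genes -0.43 and Kupffer cell genes 0.02. Lipid-associated macrophage genes had 0.39. Endothelial genes had a female median interaction of -0.18, with KO minus CT medians of -0.01 on CTD and -0.13 on HFC.

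The difference between the sexes was tested over all 28 libraries, and 0 of 14685 genes were called by edgeR or by DESeq2 (0%). The female libraries are a separate set of the series, with totals of 18741939 to 19195502 counts. Sex and library set therefore cannot be told apart in this test. At unadjusted p under 0.05 there were 400 with a higher interaction in females (2.72%) and 231 with a lower one (1.57%). The female minus male medians were -0.49 for macrophage genes, of which 1 of 24 was at unadjusted p under 0.05, -0.91 for MHC class II (0 of 10) and -1.01 for T and NK cell genes (4 of 22). Going the other way, NRF2 targets of detoxification had a female median of 0.75 and a difference of 0.85 (2 of 18). Female intervals were wide: the SE of Clec1b's interaction was 0.62 in females and 0.18 in males, and its female estimate was 0.60.

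**Figure D5:**
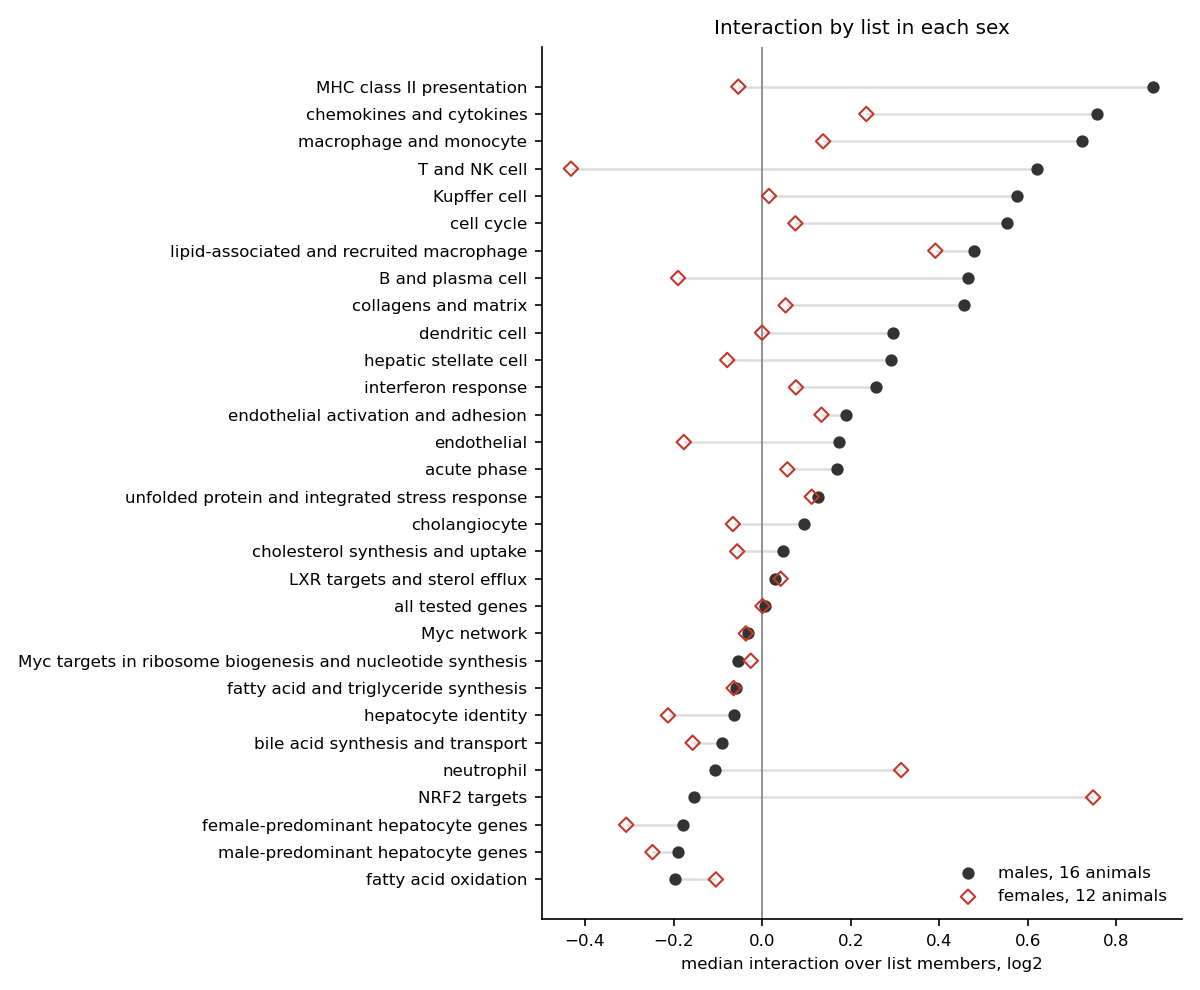
Median interaction of each list's genes in males (filled circles, 16 animals) and in females (open diamonds, 12 animals), log2, with lists in the order of the male medians. The immune lists at the top lie between 0.30 and 0.88 in males and between -0.43 and 0.39 in females, and no gene's difference between the sexes passed the adjusted test.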

How the data were processed

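RNA of whole liver was sequenced by DNBSEQ, per the labels' protocols. The authors deposited whole-number read counts per gene and CPM (counts scaled to the library total) with 1 column per animal. The deposited CPM equalled count over total within 4.99e-06 and were used for the limma alternative. The genome was GRCm38 (mm10) and the tools named are FastQC and edgeR, per the submitters' processing notes. No source used here names the aligner, annotation or strand setting, so overlapping genes such as Clec1b and Clec9a may share reads. Gene positions are GENCODE's on GRCm38, promoters RefSeq's on GRCm38.p6.

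Computed here: TMM-normalised CPM, filterByExpr, 1 mean for each of the 4 groups and the quasi-likelihood F test (robust) of edgeR 4.0.16 (R 4.3.3), with Benjamini-Hochberg adjustment over all tested genes and a threshold of 0.05. The SE is the log2 value over the square root of F, an approximation. The biological coefficient of variation was 0.161. Library totals, RLE size factors, no filter, DESeq2 1.42.0, limma 3.58.1, other fits and leaving out each animal were tried. Male totals were 22154774 to 22652285 counts, so spread between animals sets the error, and with no statement of separate cages p-values measure only that spread. Named genes were Myc, the 10 smallest p in each direction with a group mean of at least 5 CPM, genes called by any tool and up to 3 genes per list with the smallest p. Of these, 1 of the 10 negative genes is not reported here. Textbook markers and other members at unadjusted p under 0.05 were also named, after their values were seen. The 614 list entries, the lists and the contrast were chosen with earlier results of these data known.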

Additional observations from a re-analysis of the deposited data

Results flagged for a closer look

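In the 206 groups of 4 livers checked for the named genes and list scores, 11 had a liver whose gap to the nearest of the others was a larger share of the group's range than Dixon's 95% critical value for 4 samples. Chance gives about 1 such group in 20. Among genes, Clec12a was 4.44 CPM in KO CTD animal 304 against 3.74 to 3.83 in the other KO CTD livers. Arhgap30 was 6.02 CPM in CT CTD animal 320 (others 5.15 to 5.198) and 4.38 CPM in KO CTD animal 303 (others 3.61 to 3.68). Csad was 70.2 CPM in KO HFC animal 414 (others 88.7 to 92.2). Gm10359 and Gm12671, with equal counts, were 74.4 CPM in KO CTD animal 298 and 0 in the others.

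Among list scores, the mean of log2(CPM + 1), the T and NK cell score was 1.45 in CT HFC animal 543 (others 1.16 to 1.21). KO HFC animal 414 had a stellate cell score of 4.16 (others 3.62 to 3.70) and a matrix score of 4.52 (others 3.49 to 3.63). CT CTD animal 320 had a bile acid score of 7.18 (others 7.47 to 7.50) and an LXR target score of 6.81 (others 6.63 to 6.65). The part of animals 320 and 414 in the interaction was examined by leaving each out.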

How the results depend on the processing

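No paired analysis was possible because each animal has its own number and the groups share none. The 24 alternatives in males (8 settings and leaving out each of 16 animals) gave 0 edgeR calls of the interaction, and DESeq2 gave 5. Genes positive at unadjusted p under 0.05 numbered 267 with all 28 libraries in one fit and 441 to 689 on leaving out an animal, and negative ones 123 with library totals, 127 with limma, 161 with all 28 libraries and 210 to 391 on leaving out an animal. KO against CT gave 11 genes with DESeq2 and 1 in the fit of all 28 libraries on CTD, and 3 with DESeq2 on HFC. Females gave 0 to 1 genes on leaving out an animal (Lrrc3, -1.17, edgeR adjusted p = 0.045, without KO HFC animal 413). Library totals in place of TMM moved the median of all genes by 0.05 for the interaction. For HFC against CTD that median went from -0.01 to 0.22 in CT and from -0.02 to 0.26 in KO. Genes called for the diet numbered 1753 to 4583 in CT and 3064 to 6092 in KO over the 24 alternatives.

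Of the 24 macrophage genes, all were positive in every one of the 24 alternatives, and 12 to 20 were at unadjusted p under 0.05 on leaving out an animal, 16 with limma, 17 with a term for HFC animals 539, 540 and 543 and 0 in the fit of all 28 libraries. List medians moved with limma for dendritic cells (0.176), B and plasma cells (0.267), T and NK cells (0.295) and chemokines (0.417), with the difference of mean scores for matrix (0.277), T and NK cells (0.295), chemokines (0.392) and fatty acid oxidation (-0.351), with the term for animals 539, 540 and 543 for B and plasma cells (0.797) and with library totals for LXR targets (0.0956). On leaving out an animal, medians ranged from 0.107 to 0.587 (lipid-associated macrophages), 0.122 to 0.460 (dendritic cells), 0.459 to 0.708 (T and NK cells), 0.301 to 0.775 (B and plasma cells), -0.287 to 0.407 (neutrophils), 0.365 to 0.861 (chemokines), 0.106 to 0.391 (stellate cells), 0.0909 to 0.623 (matrix), 0.257 to 0.927 (cell cycle), -0.254 to -0.157 (fatty acid oxidation), -0.0253 to 0.0949 (LXR targets) and -0.914 to 0.4658 (female-predominant genes). The score difference of Myc ranged from -0.512 to 0.277.

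Signs reversed on leaving out 1 animal for Gm10359 and Gm12671 (both -11.7 to 1.04, reversed without KO CTD 298), Saa2 (-0.746 to 4.53, without CT CTD 313), Sox9 (-0.0574 to 0.676) and Onecut1 (-0.0845 to 1.399, both without KO HFC 414), Ugt2b38 (-0.758 to 0.105, without CT HFC 417), Myc (edgeR, -0.781 to 0.0796, without KO CTD 298), Fabp4 (-0.153 to 0.251, without CT CTD 320) and Alas2 (-0.291 to 0.0713, without CT CTD 320, CT HFC 543 or KO HFC 414). Apart from the fewer animals, the causes were not tested. With 4 animals a group, a median 95% interval of 0.391 to either side limits what can be seen.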
